A study of Mus musculus with 8 samples.

Results

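A set of 743 open-chromatin regions was among the 65811 strongest peaks of every library of mouse CD4 T cells except the 2 libraries of control cells that received IL-2, where the peaks were weaker or absent. Among all 95899 regions that at least 1 library listed, these made up 0.775%, and of the 44648 that all 6 other libraries listed, 1.66%. They were mapped by ATAC-seq, an assay that tags accessible DNA with a transposase. Naive CD4 T cells from spleen were sorted, activated with antibodies to CD3 and CD28 together with 20 ng/mL TGF-β, and harvested after 48 h at 90000 cells per sample. The 4 groups, of 2 libraries each, were Tet1/3 cDKO cells given 100 U of IL-2, Tet1/3 cDKO cells without added IL-2, control cells (labelled WT) given 100 U of IL-2, and control cells without added IL-2. All of them received TGF-β, and cDKO is a conditional loss of both Tet1 and Tet3. The study calls its replicates biological, but which animals gave them, and which Cre drives the deletion, are not given in the available sources.

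The regions were chosen by the presence of peaks. Peaks of the 8 deposited lists were merged wherever they shared at least 1 bp, which gave 175276 union regions on GRCm38 (mm10). In each list the 65811 peaks of highest −log10 p were kept, the length of the shortest list, and a region counted as listed by a library if one of those peaks fell in it. Chosen regions were listed by all 6 libraries of the other groups and by neither library of control plus IL-2. Peak presence, rank and fold in these lists therefore chose the regions, and the values below describe them with no test. A rank of 1 is the strongest peak of a list.

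TET enzymes oxidise methylated cytosine, a step towards its removal, and methylated regulatory DNA is often closed. IL-2 signals through its receptor to the transcription factor STAT5 and supports growth and survival of activated and regulatory T cells. TGF-β signals through SMAD proteins, and with T cell receptor stimulation it can induce the regulatory factor Foxp3. Most open regions of a cell lie away from gene starts, where enhancers are found.

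Of the 743 regions, 15 overlapped a RefSeq promoter window (250 bases before to 50 after a gene start, GRCm38.p6). Sequence is shown for 4 of them, the protein-coding genes among the 8 of best rank, because here the region overlaps the window at a gene start. The Ifit3 region ended before the gene start used for its window, though its midpoint fell inside the Ifit3 gene body used to assign genes. Capitals mark matches, on either strand, to CCAAT (NFY), CCGGAAGT (ETS), GGGCGG (SP and KLF), TGANTCA (AP-1) and the interferon-stimulated response element, searched as GAAA, any 2 bases and GAAA.
Meis1, chr11:19018920-19019219, minus strand: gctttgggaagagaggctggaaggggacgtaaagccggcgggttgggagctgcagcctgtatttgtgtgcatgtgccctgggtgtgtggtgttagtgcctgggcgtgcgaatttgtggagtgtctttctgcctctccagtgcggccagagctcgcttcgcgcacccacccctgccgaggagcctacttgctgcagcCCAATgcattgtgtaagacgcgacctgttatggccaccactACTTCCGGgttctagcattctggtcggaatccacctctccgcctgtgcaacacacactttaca
Pbx2, chr17:34592009-34592308, plus strand: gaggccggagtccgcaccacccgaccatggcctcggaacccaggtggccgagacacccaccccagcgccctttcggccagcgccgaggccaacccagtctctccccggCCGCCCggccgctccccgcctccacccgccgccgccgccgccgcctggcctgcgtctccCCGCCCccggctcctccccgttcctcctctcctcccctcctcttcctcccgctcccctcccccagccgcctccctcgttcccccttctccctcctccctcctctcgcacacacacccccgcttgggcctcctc
Mettl7a1, chr15:100304567-100304866, plus strand: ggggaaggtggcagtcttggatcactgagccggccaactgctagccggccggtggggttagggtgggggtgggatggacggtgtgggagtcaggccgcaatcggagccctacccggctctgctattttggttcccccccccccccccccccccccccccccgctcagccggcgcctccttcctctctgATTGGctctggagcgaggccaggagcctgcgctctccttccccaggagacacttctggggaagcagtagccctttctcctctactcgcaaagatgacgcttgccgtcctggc
Ifit3, chr19:34583279-34583578, plus strand: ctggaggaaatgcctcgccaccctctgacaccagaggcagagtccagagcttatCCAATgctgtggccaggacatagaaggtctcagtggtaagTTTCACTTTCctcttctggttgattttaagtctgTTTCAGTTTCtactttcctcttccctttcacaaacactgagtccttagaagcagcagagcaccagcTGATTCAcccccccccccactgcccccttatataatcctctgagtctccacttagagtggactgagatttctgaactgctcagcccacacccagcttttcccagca

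Meis1 and Pbx2 encode partner homeodomain factors, Ifit3 is an interferon-induced gene, and Mettl7a1 encodes a methyltransferase-like protein. The median summit lay 33 bases before the Meis1 start, 67 before that of Pbx2, 21 before that of Mettl7a1 and 143 before that of Ifit3. The Ifit3 window held 2 matches to the response element, one starting 156 and the other 122 bases before the gene start. That element was added to the search after the gene was seen, and 1 of the 15 windows held it, against 3.44% of all 32851 windows. The RUNX letters TGTGGTT were in 3 of 15 windows (20%, against 5.27% of all), at the predicted genes Gm41300 and Gm19585 and at Ccdc180. The SP and KLF letters were in 2 of 15 (13.3%, against 35.7%), CCAAT in 5 (33.3%, against 37.4%), and CACGTG, an E-box, in 2 (13.3%, against 7.15%). TTCNNNGAA (STAT), TGANTCA and CCGGAAGT were in 1 window each (6.67%, against 8.30%, 7.81% and 3.89% of all), and TGACGTCA (CRE) in 0, against 1.79%. A match is only a run of letters, not a bound site.

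At the Meis1 start the region ranked 38165 and 29378 in the cDKO libraries with IL-2 and 41792 and 34931 in those without. In control cells it ranked 65926 in replicate 1 with IL-2, just beyond the limit, had no peak in replicate 2 with IL-2, and ranked 49510 and 47327 without IL-2. It was 1 of 7 listed regions assigned to Meis1, and 0 of those 7 were in all 8 libraries. The Mettl7a1 region had no peak of any rank in either control library with IL-2. It ranked 37061 and 31449 in cDKO with IL-2, 49249 and 37908 in cDKO without, and 47008 and 54607 in control without IL-2. The Pbx2 region ranked 49198 and 47949 in cDKO with IL-2, 48819 and 48138 in cDKO without, 81063 in replicate 1 of control with IL-2, and 49910 and 53547 in control without. The cDKO and untreated control ranks of Pbx2 lay close together, and its 1 peak in treated control cells stood apart. At Ifit3 the ranks were 35746 and 59563 in cDKO with IL-2, 32368 and 45097 in cDKO without, 66448 in replicate 1 of control with IL-2, and 45081 and 37594 in control without. Its peak in treated control cells thus lay close behind the limit, and replicate 2 had none.

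A further region ended 12 bp before the sequence of miR-150-3p (chr7:45121798-45121819, plus strand), a microRNA gene that is active in mature lymphocytes. This neighbour was looked for after the values were seen, as 1 of 3 regions within 2 kb of a RefSeq microRNA. The mature sequence is printed to show which microRNA lies there, with the seed (bases 2 to 8) in capitals.
mmu-miR-150-3p: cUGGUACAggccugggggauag
The region itself (chr7:45121099-45121786) ranked 17556 and 22493 in cDKO with IL-2, 11047 and 13717 in cDKO without, 75451 in replicate 1 of control with IL-2, and 41166 and 21767 in control without. By the authors' deposited fold over background its peaks stood at 6.63 and 6.09, 7.66 and 6.92, 3.23, and 5.08 and 5.60 in the same libraries.

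**Figure D1:**
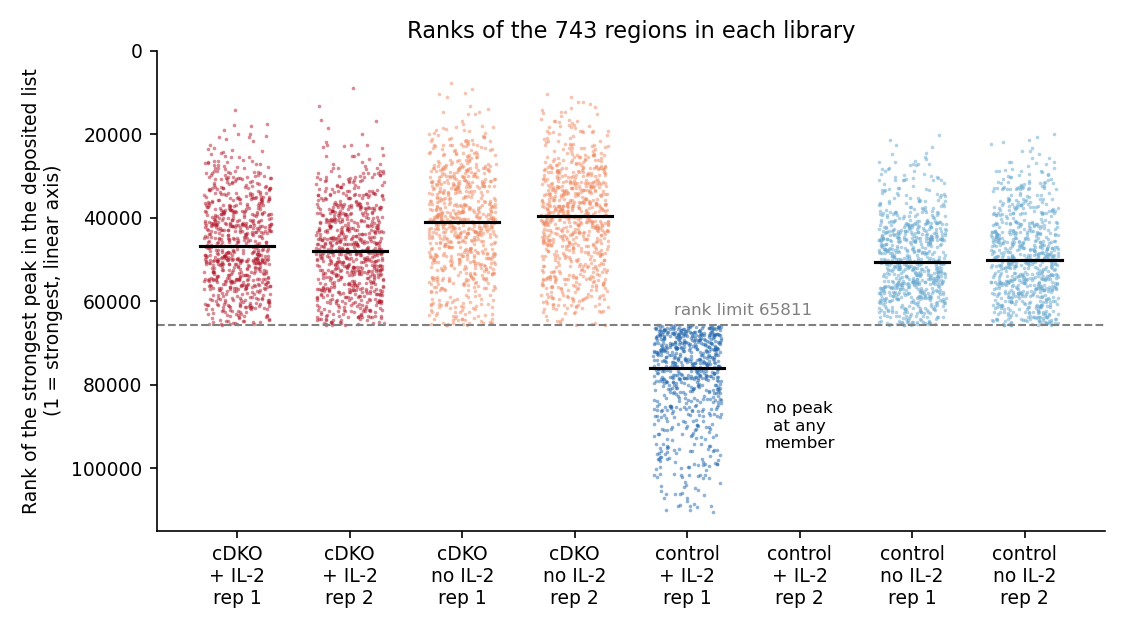
Each point is 1 of the 743 regions, placed at the rank of its strongest peak in the deposited list of each library (linear axis, strongest at the top). Black bars are medians and the dashed line is the limit of 65811. Replicate 1 of control plus IL-2 has 680 points, all beyond the limit, and replicate 2 has none.

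The missing peaks were mostly weak rather than wholly lost in one library of control plus IL-2. In its replicate 1, whose deposited list held 113317 peaks, 680 of the 743 regions had a peak further down, at ranks from 65812 to 110580 with a median of 75962. Of all 743, 164 lay between the limit and rank 70000 there, 272 between 70000 and 80000, 130 between 80000 and 90000, and 114 beyond. The summits of these weaker peaks lay close by: in 662 of 680 (97.4%) within 100 bp of the median summit of the other 6 libraries. In those 6 libraries the share, against the other 5, was 98.0% to 99.2% of 743. A peak counted only if it fell in the same merged region, of median width 326 bp, so much of this closeness was built in. In replicate 2, whose deposited list ended at the limit, 0 of the 743 regions had a peak. The other 63 regions (8.48%) were in neither deposited list of control plus IL-2. By the authors' deposited fold the median over the regions was 7.12 and 7.89 in cDKO with IL-2, 8.21 and 8.62 in cDKO without, 5.13 in replicate 1 of control with IL-2 (over its 680), and 8.63 and 6.34 in control without. The fold of the last listed peak also differed, from 2.86 to 6.84, so these medians give no order between groups, and the order below is by rank.

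Replicate 2 of control plus IL-2 stood apart from the other libraries. Its list was the shortest, with 65811 peaks against 92488 to 145979 in the other 7, and its last peak had a −log10 p of 3.25, against 7.97 to 13.5 at the same rank elsewhere. It alone lacked 2343 regions that the other 7 libraries listed, against 385 to 868 for each of the others. Read depth is unknown, since the lists hold no read totals. Of the 3086 regions that the 6 libraries of the other groups listed and replicate 2 lacked, 743 (24.1%) were also missing in replicate 1. Of the 41562 that replicate 2 listed, replicate 1 lacked 868 (2.09%). Chosen from replicate 1 instead, 743 of 1611 (46.1%) were also missing in replicate 2, against 2343 of 43037 (5.44%). In the other groups, 22.2% to 57.0% of the regions missing in one replicate were missing in the other too. Of the regions that one replicate listed there, the other lacked 0.937% to 1.78%, less than either value of control plus IL-2. The part that the short list had in the 743 was not tested. Without replicate 2 the same rule gave 1611 regions, and without replicate 1 it gave 3086. Without replicate 1 of control without IL-2 it gave 1141.

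**Figure D2:**
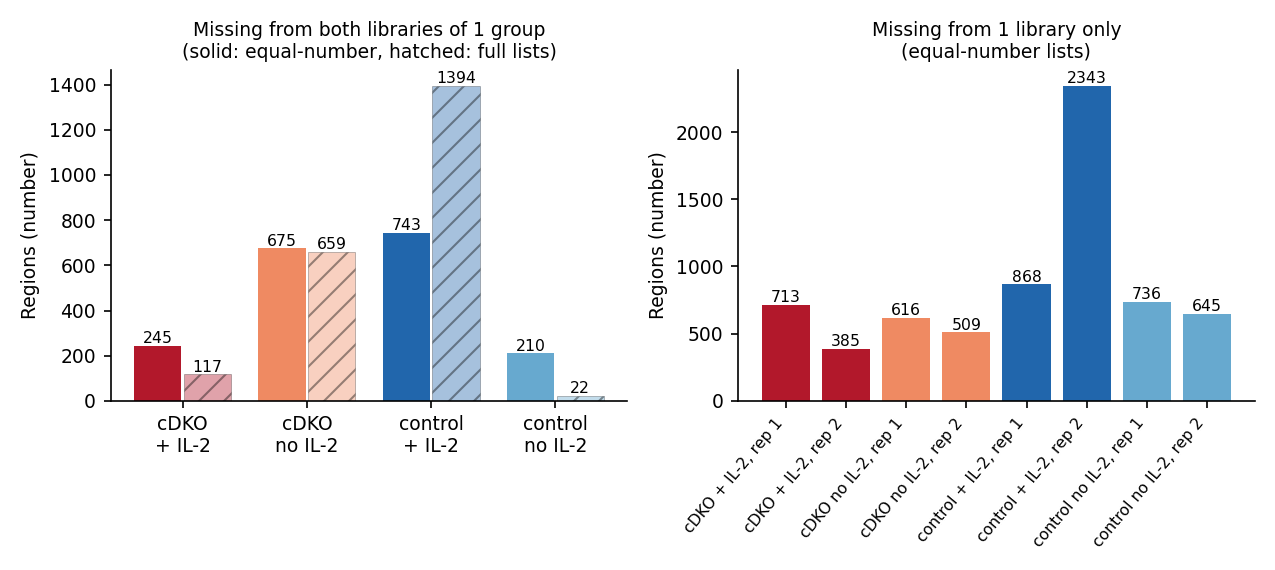
Left, regions listed in all libraries of 3 groups and neither library of the named group, in equal-number lists (solid bars) and full deposited lists (hatched bars). Right, regions that only the named library lacked in equal-number lists. Control plus IL-2 had 743 and 1394 in the left plot, and its replicate 2 the tallest bar, 2343, in the right plot.

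The same kind of pattern in the other groups gave fewer regions. Those missing only in cDKO plus IL-2 numbered 245, only in cDKO without IL-2 675, and only in control without IL-2 210. With full deposited lists the numbers were 117, 659 and 22, against 1394 for control plus IL-2 (0.795% of the 175276 union regions). By construction, the 743 regions are lower with IL-2 in control cells and higher in cDKO than in control cells with IL-2, where a call means that both libraries of one side list a region and neither of the other does. They made up 30.9% of the 2407 regions lower with IL-2 in control cells (2.51% of all listed regions) and 21.5% of the 3461 higher in cDKO with IL-2 (3.61% of all). Both comparisons share the control libraries with IL-2. In bulk samples, fewer cells that open a region and less opening per cell cannot be told apart.

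Among the 6 libraries that listed the regions, cDKO cells without IL-2 had the strongest peaks. This contrast leaves out control plus IL-2, but the rank limit in these 6 libraries also chose the regions, so it only describes them. Median ranks over the 743 regions were 46883 and 47912 in cDKO plus IL-2, 41133 and 39643 in cDKO without IL-2, and 50503 and 50150 in control without IL-2. Over all 44648 regions listed by these 6 libraries the medians were nearly level, from 22504.5 to 22933.5. The 44648 thus held stronger peaks than the 743, and no background of like strength was drawn. The best rank of a region fell in a cDKO library without IL-2 for 432 of 743 (58.1%), against 31.0% of the 44648. In cDKO cells, both libraries with IL-2 ranked ahead of both without it at 71 regions (9.56%, against 20.2% of the 44648), and the reverse held at 289 (38.9%, against 22.3%). Without IL-2, both cDKO libraries ranked ahead of both control libraries at 365 regions (49.1%, against 25.6%), and the reverse held at 45 (6.06%, against 20.6%). Control without IL-2 was also behind cDKO with IL-2, which ranked ahead at 225 regions (30.3%, against 23.7%) and behind at 104 (14.0%, against 20.2%). Along this order cDKO without IL-2 was strongest, cDKO with IL-2 next and control without IL-2 behind it, while control with IL-2 was weakest by the choice of the regions. With 2 libraries a side an exact 2-sided permutation test cannot give a p under 0.333, so none is given.

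The direction of these 3 rank contrasts was the same under all 15 alternatives. The 8 that only leave out a library hold all 743 by the rule, so the same direction there is largely built in. Over the 44648 regions the shares leaned the same way, by less. They were 22.3% against 20.2% (cDKO without over with IL-2), 25.6% against 20.6% (cDKO over control without IL-2) and 23.7% against 20.2% (cDKO with IL-2 over control without). The excess of the first direction in cDKO cells (without IL-2 ahead, minus with IL-2 ahead) was 29.3 percentage points. It was 18.4 points among the 3086 regions found without replicate 1 of control plus IL-2, where the excess of cDKO over control without IL-2 was 26.0 points in place of 43.1. In that setting the excess of cDKO with IL-2 over control without was 9.11 points in place of 16.3. Without replicate 1 of cDKO plus IL-2 the last value was 8.40. The 2343 regions missing only in replicate 2 of control plus IL-2 leaned the same way, with the best rank in cDKO without IL-2 for 41.5%. The set missing only in cDKO without IL-2 showed the mirror image, with the best rank in control plus IL-2 for 77.5% of its 675 regions. For that set no share over all regions of its 6 libraries was taken, and the rank limit also chose both sets. As a description only, being strongest in the group that differs in both genotype and IL-2 was not particular to the 743.

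**Figure D3:**
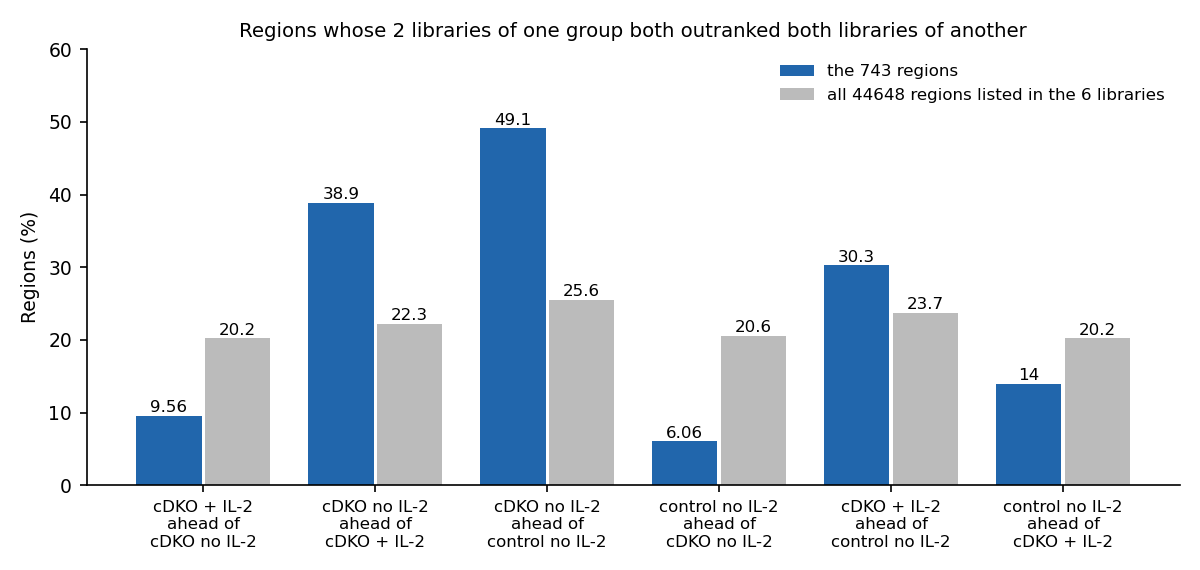
For each pair of groups, the share (%) of regions at which both libraries of the first group ranked ahead of both libraries of the second, among the 743 regions (blue) and all 44648 regions listed by the same 6 libraries (grey). The tallest blue bar is cDKO ahead of control without IL-2, 49.1% against 25.6%.

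Genes of regulatory T cells held 6 of the 743 regions, at Ikzf2, Ctla4, Nrp1 and Nt5e. That is 2.5% of the 240 listed regions at the 19 genes of this list, against 0.775% over all regions, and 31.6% of the 19 that were in exactly 6 libraries, against 13.3% over all such regions. In the other direction, 4 of the 240 (1.67%) were found only in control plus IL-2, against 0.983% of all listed regions. Under other settings the list held 2 to 13 of the missing regions, and 8 of 1611 without replicate 2 of control plus IL-2. Ikzf2 encodes Helios, a factor of regulatory T cells. The stronger of its 2 regions lay 65.7 kb from the gene (chr1:69752725-69753298) and ranked 28875 and 38905 in cDKO with IL-2, 24713 and 32342 in cDKO without, and 43823 and 44913 in control without. Neither control library with IL-2 had a peak of any rank there. Inside Ikzf2 (chr1:69626194-69626467) the ranks were 49621 and 59690 in cDKO with IL-2, 53800 and 41866 in cDKO without, 81571 in replicate 1 of control with IL-2, and 45050 and 57049 in control without.

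Ctla4, which encodes an inhibitory receptor that restrains CD28 costimulation, also had a pair of regions, both upstream of the gene. The nearer, 1.36 kb away (chr1:60907547-60907779), ranked 46407 and 56620 in cDKO with IL-2, 52111 and 42676 in cDKO without, 68997 in replicate 1 of control with IL-2, and 37633 and 51088 in control without. The farther, 63.1 kb away (chr1:60845754-60846027), ranked 49620 and 51562 in cDKO with IL-2, 54296 and 38328 in cDKO without, 81562 in replicate 1 of control with IL-2, and 35842 and 54794 in control without. At both, one control library without IL-2 held the best rank of all. Ctla4 had 23 listed regions in all, and 15 of them were in every library. The region inside Nrp1, a co-receptor found on regulatory T cells, ranked 77217 in replicate 1 of control with IL-2. At the region 9.96 kb upstream of Nt5e, the gene of the adenosine-forming enzyme CD73, that rank was 67753. Foxp3 held 0 of its 3 listed regions in the set, Il2 0 of 10, Tet1 0 of 13 and Tet3 0 of 17.

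**Figure D4:**
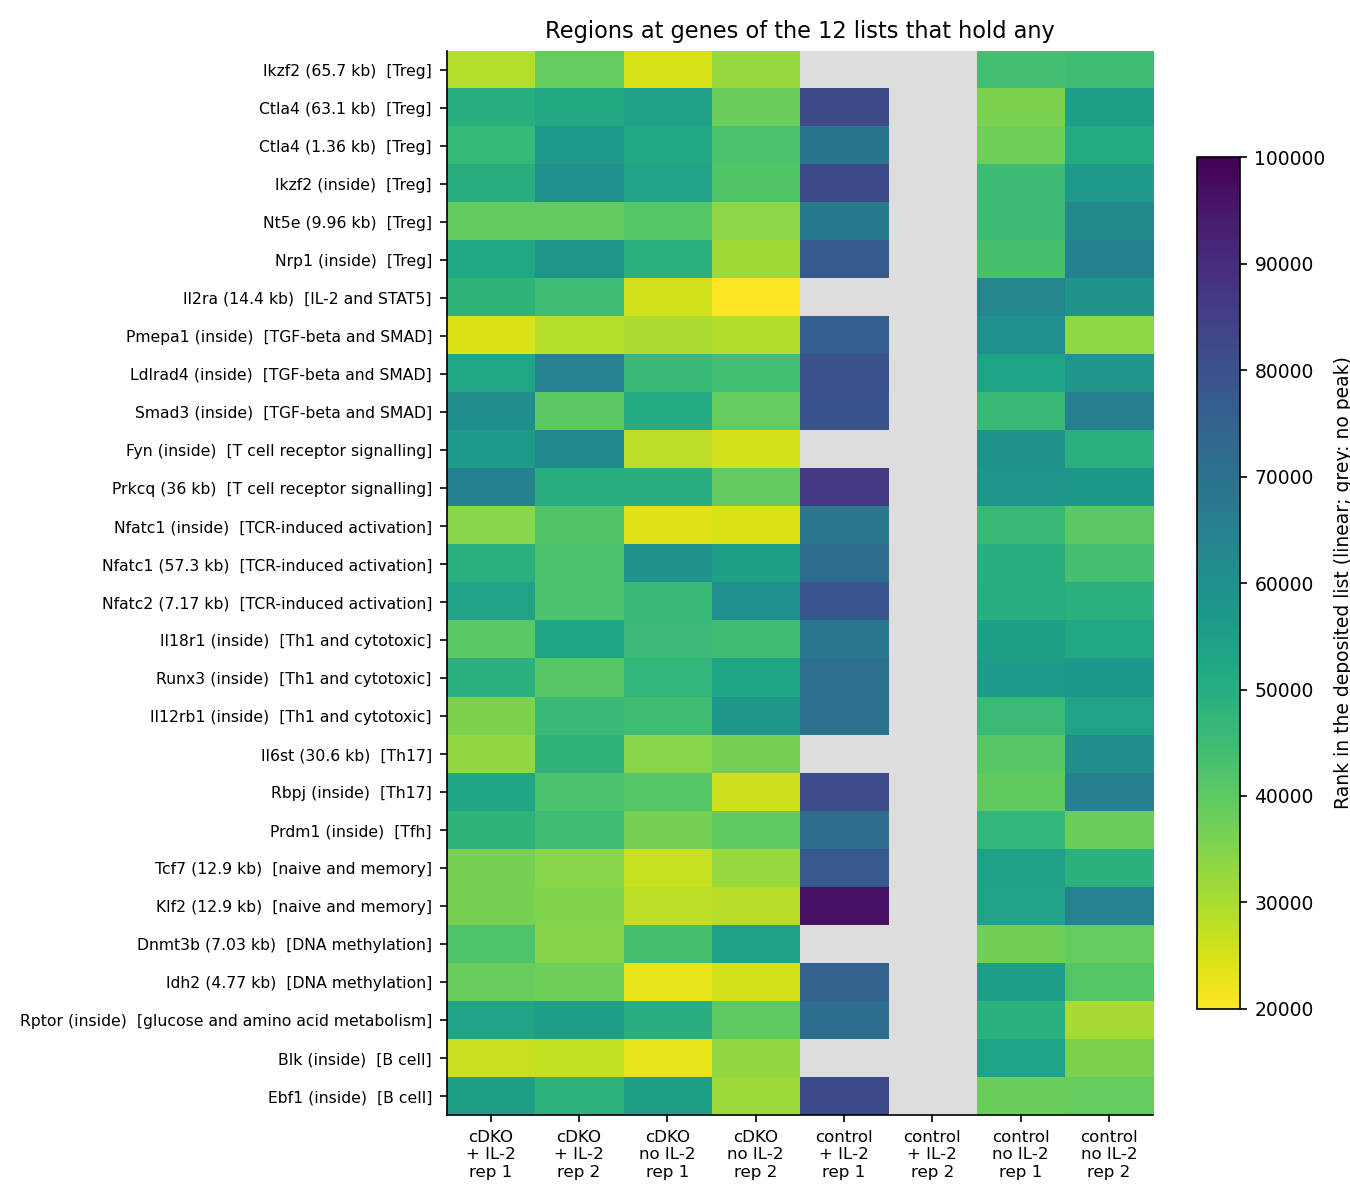
Each row is 1 of 28 of the 30 regions at genes of the lists, with its distance from the gene body, and each column a library. The colour is the rank in the deposited list (linear, 20000 or better in yellow to 100000 or worse in purple), and grey means no peak. Replicate 2 of control plus IL-2 is grey throughout, and replicate 1 is grey at 6 rows.

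The IL-2 and STAT5 list held 1 region (0.521% of 192, against 0.775% over all), 14.4 kb upstream of Il2ra, which encodes the high-affinity receptor chain for IL-2 (chr2:11628237-11628630). It ranked 48054 and 44769 in cDKO with IL-2, 25556 and 19311 in cDKO without, and 63150 and 58672 in control without, and neither control library with IL-2 had a peak there. By the authors' deposited fold it stood at 5.22 and 5.34, 9.90 and 11.5, and 5.01 and 4.58 in the same order. The cDKO libraries without IL-2 stood apart at this region. The other 4 values were close together by fold, but by rank both cDKO libraries with IL-2 were ahead of both control libraries without it. Il2ra had 19 listed regions, 9 of them in every library.

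Genes of TGF-β signalling held 3 regions, inside Pmepa1, Smad3 and Ldlrad4 (0.971% of 309, near the background). Smad3 encodes a signal transducer of the pathway, and both Pmepa1 and Ldlrad4 encode inhibitors of it. The Pmepa1 region (chr2:173246822-173247229) ranked 24673 and 28907 in cDKO with IL-2, 29949 and 29247 in cDKO without, 75970 in replicate 1 of control with IL-2, and 59948 and 33704 in control without. All 4 cDKO libraries thus ranked it ahead of both control libraries without IL-2. In Smad3 and Ldlrad4 the rank in replicate 1 of control with IL-2 was 79657 and 80160.

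T cell receptor signalling genes held 4 regions (1.15% of 348) and genes induced by the receptor 3 (0.912% of 329). Of the signalling regions, 1 lay inside the Src-family kinase gene Fyn and 1 lay 36.0 kb upstream of Prkcq, the gene of protein kinase C theta. The Fyn region (chr10:39488077-39488297) ranked 56216 and 62560 in cDKO with IL-2, 28327 and 25504 in cDKO without, and 59355 and 49143 in control without, with no peak in either control library with IL-2. As at Il2ra, the cDKO libraries without IL-2 stood ahead of the rest. Nfatc1, which encodes a calcium-regulated factor, had 2 regions, 1 inside the gene and 1 at 57.3 kb, and its relative Nfatc2 had 1 at 7.17 kb. The region inside Nfatc1 ranked 34165 and 41834 in cDKO with IL-2, 23451 and 24064 in cDKO without, 68073 in replicate 1 of control with IL-2, and 46184 and 40006 in control without.

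The lists of helper fates and of naive cells held 0 to 3 of the regions each, with shares on both sides of the 0.775% over all regions. These counts moved with the setting: with full deposited lists Th1 and cytotoxic genes held 0 and naive and memory genes 9. Th1 and cytotoxic genes had 3 (1.69% of 177), inside Il18r1, Runx3 and Il12rb1, with ranks of 68576, 70352 and 70149 in replicate 1 of control with IL-2. Th17 genes had 2 (0.847% of 236), near the cytokine receptor gene Il6st and inside the Notch effector gene Rbpj. Tfh genes had 1 (0.725% of 138), inside Prdm1, which encodes the repressor Blimp-1, and Th2 genes 0 of 80. Naive and memory genes had 2 (0.406% of 493), 12.9 kb upstream of Klf2, a factor of quiescence and trafficking, and 12.95 kb upstream of Tcf7, which encodes TCF-1. The Klf2 region (chr8:72305912-72306341) ranked 36472 and 35206 in cDKO with IL-2, 28117 and 28627 in cDKO without, 96513 in replicate 1 of control with IL-2, and 53331 and 64452 in control without. Without IL-2, both cDKO libraries ranked it ahead of both control libraries. The same held at Tcf7, which ranked 36313 and 34262, 26583 and 32421, 77665, and 54202 and 48710 in the same libraries.

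The DNA methylation list held 2 regions (1.56% of 128), 7.03 kb downstream of the methyltransferase gene Dnmt3b and 4.77 kb upstream of Idh2, whose enzyme can supply the co-substrate of TET proteins. The Dnmt3b region ranked 41974 and 34542 in cDKO with IL-2, 43392 and 54086 in cDKO without, and 37226 and 38858 in control without, and had no peak in control with IL-2. Its weakest rank among the 6 was in a cDKO library, and both untreated control libraries ranked it ahead of both cDKO libraries without IL-2. The metabolism list had 1 region (0.505% of 198), inside Rptor, a subunit of the mTORC1 kinase complex.

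Of the lists of other cell types, B cell genes had 2 regions (3.70% of 54), inside the kinase gene Blk and the B cell factor gene Ebf1. The Blk region ranked 26424 and 27190 in cDKO with IL-2, 23025 and 32843 in cDKO without, and 53748 and 35625 in control without, with no peak in control with IL-2. Genes of erythroid cells had 0 of 20, those of CD8 and NK cells 0 of 29 and those of myeloid and dendritic cells 0 of 82. As a check of the label, all 6 CD4 T cell markers (Cd3e, Cd3d, Cd4, Cd28, Cd5 and Lck) had a listed peak within 1 kb of a gene end in all 8 libraries. Of the B cell markers, Ms4a1 and Pax5 had none in any library and Cd79a had one in all 8. Of the CD8 and NK cell markers, Klrb1c, Klrd1 and Klrk1 had none and Cd8b1 had one in all 8. Itgax, Csf1r and Lyz2 of the myeloid list had none, and Itgam had one in all 8. The marker counts differed between libraries by at most 1 gene per list. In all, 30 of 3053 regions at the 243 genes of 16 lists were in the set (0.983%, against 0.775%). Of these 30, 6 were in neither deposited control list with IL-2, and the rest ranked 65937 to 96513 in its replicate 1.

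The 20 regions of best rank among the 63 found in neither deposited control list with IL-2 had their worst rank between 44913 and 56080. Of these, 11 lay inside a gene body, 7 outside one and 2 had no protein-coding gene within 100 kb. Besides those near Ikzf2, Blk, Dnmt3b and Mettl7a1, they lay inside Atxn1, Ostf1, Dgkh, Tmem123, Medag, Rapgef2, Arsb, Ube2j1 and Fchsd2. Outside gene bodies they lay 4.07 kb from Susd1, 6.57 kb from Twsg1, whose protein binds bone morphogenetic proteins, 15.6 kb from Pcbp1, 34.0 kb from Serinc1 and 37.7 kb from the angiopoietin gene Angpt1. Both cDKO libraries without IL-2 ranked ahead of both control libraries without IL-2 at 15 of the 20 and behind at 1, against 49.1% and 6.06% of the 743 and 25.6% and 20.6% of the 44648. The 20 were picked by rank in these same libraries, so the count only describes them. No such count is given for all 63. At all 63, no peak passed the authors' threshold in either control library with IL-2.

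The regions were spread singly over the genome. They were assigned to 637 genes, of which 606 had 1, 30 had 2 and 1 had 3, all inside Pde7b, the gene of a phosphodiesterase that degrades cAMP. Another region of the set lay within 100 kb for 88 (11.8%) and within 10 kb for 8. Stretches of 100 kb with 3 of them lay at 1 place only, where regions in Nf1, Evi2b, Evi2 and Rab11fip4 followed each other (chr11:79427723-79615192) and either the first or the last 3 fell within 100 kb. Among the many pairs within 100 kb, the first by position were the one at Ctla4 and one upstream of Nabp1, which encodes a single-stranded DNA binding protein, 21.9 and 27.97 kb from the gene. Every autosome and the X chromosome held some, at 0.547% (chromosome 19) to 0.898% (chromosome 5) of its listed regions. Of the 637 genes, 65 (10.2%) also had a region found only in control plus IL-2, which is 8.39% of the 775 genes with such a region. Among all 16898 genes with a listed region, 775 had such a region and 637 had one of the set. The number of listed regions per gene was not taken into account.

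**Figure D5:**
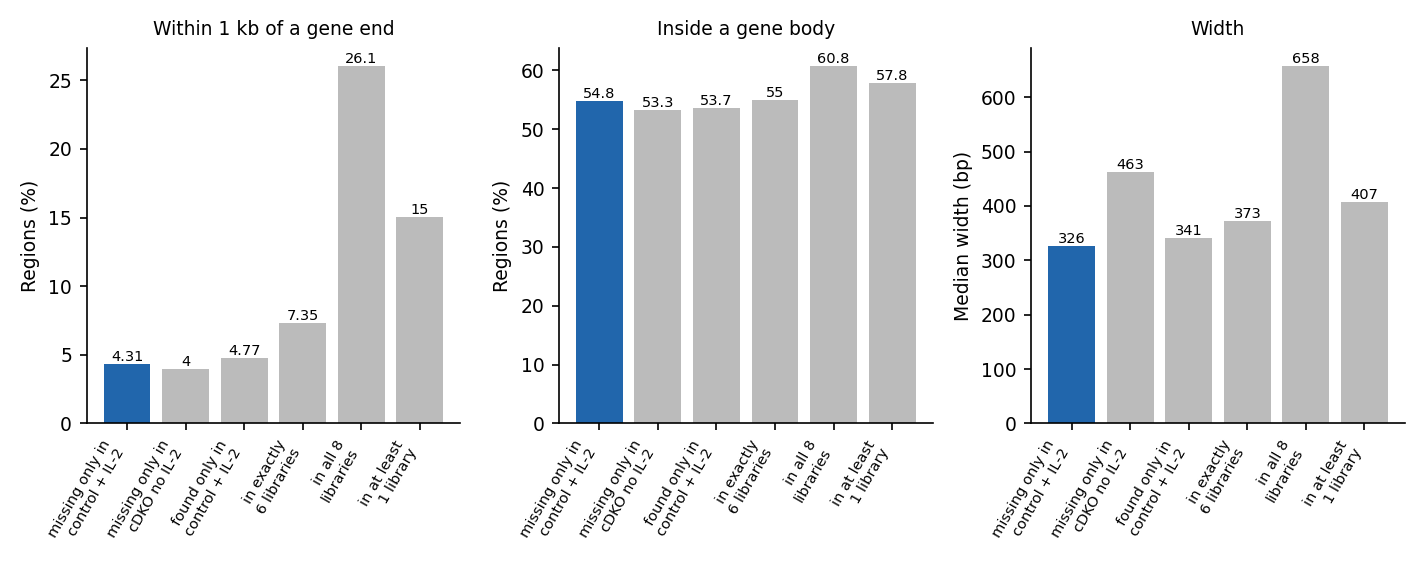
Shares of regions at a gene end (left), shares inside a gene body (middle) and median widths (right), for the 743 regions (blue) and 5 other sets (grey). The 743 regions had 4.31% at gene ends, against 26.1% of regions in all 8 libraries.

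Most of the regions lay far from gene ends. Of the 743, 32 (4.31%) were at a gene end (within 1 kb of the start or end of a protein-coding gene body), against 15.0% of all listed regions, 26.1% of those in all 8 libraries and 7.35% of those in exactly 6. The like sets had similar shares, 4.0% for regions missing only in cDKO without IL-2 and 4.77% for those found only in control plus IL-2. Inside gene bodies lay 407 (54.8%), against 57.8% of all listed regions, and 74 (9.96%) had no protein-coding gene within 100 kb, against 6.70%. That last share was 9.78% for the set missing only in cDKO without IL-2, 9.97% for that found only in control plus IL-2 and 8.19% in exactly 6 libraries. Widths had a median of 326 bp (135 to 946), below the 407 bp of all listed regions and the 463 bp of the set missing only in cDKO without IL-2. The set found only in control plus IL-2 was nearer, at 341 bp, and regions in exactly 6 libraries had 373 bp. The nearest region listed in all 8 libraries was a median of 7.83 kb away, and 56 (7.54%) had one within 1 kb, against 10.2% of the regions in exactly 6 libraries. Exons, introns and untranslated parts were not analysed here.

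At the limit, membership turned on small differences in rank. The members of worst rank lay 76.3 kb from Pitrm1 (rank 65801), inside Prdm10 (65798) and near Ppp1r1b (65792). Just outside, regions in 4921528I07Rik, Gadl1 and Kcnq5 missed the set because 1 library ranked them at 65822, 65825 and 65829. On the side of control plus IL-2, regions inside Clic5, Cracd and Slc25a53 joined with ranks of 65812, 65824 and 65833 in replicate 1. Regions at Rfx8, Txnip and Stra8, with ranks of 65783, 65732 and 65724 there, did not.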

How the data were processed

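Peak lists of 8 ATAC-seq libraries (4 groups of 2) on GRCm38 (mm10) were used. MACS2 2.2.7.1, SAMtools 1.3.1, Picard, Bowtie2 2.4.1, Trimmomatic 0.39, HOMER 4.11.1, DiffBind 2.10.0 and ChIPseeker 1.18.0 are listed without role or order, per the submitters' processing notes. Each deposited list holds peaks called per library, with the authors' fold over background (a linear ratio) and summit. It also gives a −log10 p and a −log10 q per peak as the authors' caller wrote them, and the largest q was 0.0492 to 0.0500. The lists hold no read counts, so depth is unknown, and a longer list reaches weaker peaks.

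Peaks sharing at least 1 bp were merged across lists (Python 3.11.15, pandas 2.3.3, numpy 2.4.6). The 65811 peaks of highest −log10 p were kept per list, and the presence rule was applied as the report states; ranks refer to the full deposited lists. The rule was tested on simulated data and returned 200 of 200 planted regions. Each region took the protein-coding gene (RefSeq, GRCm38.p6, 21896 genes) whose body held its midpoint, otherwise the nearest within 100 kb. Regions within 1 kb of either end of a gene counted as gene ends. Promoter and microRNA sequences are RefSeq's. Other planned sequence counts needed a genome and were not run.

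The members and the gene lists were chosen with earlier results of these data known. Named were the 20 members of best worst rank in neither deposited control plus IL-2 list, up to 4 genes per list, the 8 best promoter members, the 3 on each side of the limit, any at Tet1, Tet3, Foxp3, Il2ra or Il2, and the 3 stretches of 100 kb with the most members (ties by position, overlaps left out). No column of other samples was present. No test was made, since the values chose the regions. Alternatives were other list lengths, ranking by fold, a q of 0.01, a 50% cover, merging over 100 bp and leaving out each library. Results on a few genes are not reported here.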

Additional observations from a re-analysis of the deposited data

How the results depend on the processing

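The number of regions depended on the list lengths. It was 743 with equal-number lists, 1394 with full deposited lists, 1378 at a q of 0.01 or less and 400 with lists of 32905 peaks, and stayed within 1.5 times with ranking by fold (769), a 50% cover (835) or merging over 100 bp (740). Leaving out each library gave 793 to 3086, with 3086 without replicate 1 of control plus IL-2, 1611 without its replicate 2 and 1141 when replicate 1 of untreated control was left out. Leaving one out loosens the rule, so these hold all 743. An alternative chosen after seeing the data, without replicate 2 of control plus IL-2 and with lists of 92488 peaks, gave 2010, of which 157 were among the 743. Of the 743, 63 were kept with full lists and also at a q of 0.01, 1 with the lists of 32905, 356 by fold and 435 with the 50% cover.

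The share at gene ends (4.31%) was 2.86% by fold and 3.93% to 6.39% with a library left out, the highest without replicate 2 of control plus IL-2. The share inside gene bodies (54.8%) ranged over the alternatives from 53.3% with the 50% cover to 57.5% with full deposited lists. The share in neither deposited control plus IL-2 list (8.48%) was 0% with the lists of 32905, 15.6% by fold, 96.5% at a q of 0.01, 4.43% with the 50% cover, 31.4% in the added alternative and 2.04% to 11.0% with a library left out. Except where the alternative fixes it (longer lists, fewer libraries), the cause was not tested. Depth, which the lists do not give, limits what a missing peak means. No paired analysis was possible because the members come from a presence rule with no test.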

Other observations

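The strongest regions among the 743 were looked up after their values were seen. The best single rank, 7798, belonged to a region with no protein-coding gene within 100 kb (chr15:61428803-61429146). It ranked 14208 and 8916 in cDKO with IL-2, 7798 and 11085 in cDKO without, 101651 in replicate 1 of control with IL-2, and 42731 and 42049 in control without. Judged by the worst rank over the 6 libraries, the strongest region was inside Rpn2 (chr2:157313500-157314039), the gene of a subunit of the oligosaccharyltransferase that glycosylates new proteins. It ranked 20048 and 19944 in cDKO with IL-2, 9131 and 10471 in cDKO without, 87333 in replicate 1 of control with IL-2, and 24563 and 28403 in control without. The authors' deposited folds there were 12.4 and 12.1, 15.7 and 14.9, 4.90, and 12.9 and 9.74 in the same libraries. Next came a region inside Jaml (chr9:45098465-45099003), the gene of a junctional adhesion molecule of leukocytes. It ranked 24149 and 21862 in cDKO with IL-2, 21733 and 25860 in cDKO without, 75118 in replicate 1 of control with IL-2, and 37189 and 36838 in control without. These regions were picked by rank in the same libraries, and the share with the next pattern was not counted over the 743 or the 44648. At all 3 regions the 4 cDKO libraries ranked ahead of both control libraries without IL-2. That did not hold at the regions next in worst rank, upstream of Arsb, at chr17:52212975-52213417 and downstream of Pdhx. Replicate 2 of control without IL-2 ranked 31646, 21451 and 28868 there. Both cDKO libraries with IL-2 were behind it, at 31952 and 33516, 30280 and 34302, and 34394 and 38820. Jaml had 7 listed regions, and 1 of them was in all 8 libraries.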
